A study of Caenorhabditis elegans with 2 samples.

Results

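The 393 peaks described here are those of tagged ALY-2 whose summit fell in an intron of a protein-coding gene of Caenorhabditis elegans, away from gene starts. They were taken from the 3341 peaks of the authors' permissive list for both replicates together, which includes background. They made up 11.8% of that list (exact 95% interval 10.7 to 12.9). A summit was counted when it lay inside a protein-coding transcript, in no annotated exon of any gene, and outside the stretch from 1000 bp upstream to 200 bp downstream of every annotated transcript start. The choice used position only, not signal.

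Chromatin immunoprecipitation followed by sequencing was done on whole L4 larvae of strain OP217, a mixed-sex population that carries unc-119(ed3) III and the integrated transgene ddIs172. In it the C-terminus of ALY-2 carries GFP and FLAG as tags, and the promoter that drives it is not given in the labels. There was 1 group with 2 samples, labelled biological replicates 1 and 2, and nothing says whether they came from separate cultures, so the spread between them may be technical. The animals' age is labelled unknown, and in whole animals a site bound strongly in few cells and one bound weakly in many cannot be told apart.

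ALY-2 belongs to the Aly/REF family, whose members bind mRNA during its synthesis and processing and pass it to the nuclear export receptor. Introns are transcribed with the exons and removed by the spliceosome before export. Most introns of this worm are short, and the long ones, often near the start of a gene, can hold enhancers, further promoters and whole genes.

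The deposited values are peak lists, so read depth is unknown and all intervals cover counting error over peaks only. The combined list is permissive and includes background. Each replicate had such a list too, with 17453 peaks for replicate 1, covering 6.68% of the genome, and 29384 for replicate 2, covering 11.1%. The reproducible list held 193 combined peaks that passed the authors' threshold on the irreproducible discovery rate, a measure of how well ranks are repeated. They are the 193 strongest combined peaks by signal, and a listed peak need not rank high in both replicates. Signal is the authors' value for each peak, on a scale that is not stated. Its median was 8.88 in the list of replicate 1 and 4.95 in that of replicate 2, so values are set side by side for each peak but are comparable within a list only. Combined peaks were 370 bp wide. Coordinates are ce11, and no test between groups was possible.

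The strongest intronic summits were of several kinds, which the sequence around them shows. Each is printed over 101 bases centred on the summit, 5′ to 3′ along the host gene's strand, from the RefSeq assembly WBcel235, the same build as ce11. A pair of the reproducible summits lay close to splice sites. Capitals mark bases of annotated coding exons, here at srt-47, of a chemoreceptor gene family, and at bcf-1.
srt-47 (chrIV:15049685-15049785, minus strand): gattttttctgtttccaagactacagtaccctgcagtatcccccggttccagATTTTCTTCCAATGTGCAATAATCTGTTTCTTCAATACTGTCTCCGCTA
bcf-1 (chrV:6401728-6401828, minus strand): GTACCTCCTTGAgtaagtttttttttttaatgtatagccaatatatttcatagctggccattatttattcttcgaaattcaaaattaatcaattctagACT

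The other 3 reproducible summits shown lay inside introns of 1014 to 1599 bp, with no exon in the window. Here capitals mark CG dinucleotides. The host lea-1 encodes a protein like those of late embryogenesis in plants, cla-1 encodes a large protein of the synaptic active zone, and sre-45 belongs to another chemoreceptor family.
lea-1 (chrV:10026859-10026959, plus strand): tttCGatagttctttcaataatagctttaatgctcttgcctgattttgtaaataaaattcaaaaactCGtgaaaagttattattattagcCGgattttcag
cla-1 (chrIV:7623899-7623999, plus strand): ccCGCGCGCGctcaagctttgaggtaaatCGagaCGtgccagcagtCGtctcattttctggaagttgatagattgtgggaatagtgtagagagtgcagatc
sre-45 (chrII:13521500-13521600, plus strand): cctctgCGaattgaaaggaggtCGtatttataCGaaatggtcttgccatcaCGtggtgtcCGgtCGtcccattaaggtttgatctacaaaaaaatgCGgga

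The next kind was a summit in a very short intron between coding exons. Capitals again mark coding-exon bases, so each whole intron stands in lower case, opening with gt and closing with ag. The hosts are cbd-1, which encodes a chitin-binding protein of the eggshell, cec-6, which encodes a chromodomain protein, and irg-7, an infection response gene.
cbd-1 (chrIV:11375355-11375455, plus strand): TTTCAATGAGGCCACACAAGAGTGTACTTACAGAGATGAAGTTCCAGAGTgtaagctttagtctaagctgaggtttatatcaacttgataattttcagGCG
cec-6 (chrIV:5546975-5547075, plus strand): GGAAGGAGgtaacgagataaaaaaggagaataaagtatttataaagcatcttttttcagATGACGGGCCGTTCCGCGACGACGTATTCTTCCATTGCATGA
irg-7 (chrX:3238435-3238535, minus strand): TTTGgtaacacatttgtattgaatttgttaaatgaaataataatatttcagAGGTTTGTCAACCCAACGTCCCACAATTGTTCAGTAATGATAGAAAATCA

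The last kind was a summit in a long first intron. CG dinucleotides are in capitals. The strongest of them lay in gei-4, in daf-5, which encodes a Ski/Sno-family regulator of dauer entry, in ell-1, which encodes a relative of the ELL elongation factors, and in pqn-41, which encodes a glutamine- and asparagine-rich protein. The 101 bases held 12 CG at gei-4, 11 at daf-5, 7 at ell-1 and 4 at pqn-41, with 3 at lea-1 and 7 each at cla-1 and sre-45. These are single sites: over all intronic peaks, the median number of CG in a wider window, 100 bp on each side of the summit, was 7 (6 to 8) in first introns and 7 (6 to 7) in later ones.
gei-4 (chrIII:349791-349891, minus strand): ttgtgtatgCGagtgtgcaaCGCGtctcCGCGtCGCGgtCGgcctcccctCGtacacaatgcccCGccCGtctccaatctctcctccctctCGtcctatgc
daf-5 (chrII:14040436-14040536, minus strand): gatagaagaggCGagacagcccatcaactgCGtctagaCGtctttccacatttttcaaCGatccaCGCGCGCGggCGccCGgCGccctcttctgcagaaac
ell-1 (chrIV:4398339-4398439, plus strand): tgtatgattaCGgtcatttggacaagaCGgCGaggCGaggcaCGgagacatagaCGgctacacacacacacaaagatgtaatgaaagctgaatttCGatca
pqn-41 (chrIII:1921197-1921297, plus strand): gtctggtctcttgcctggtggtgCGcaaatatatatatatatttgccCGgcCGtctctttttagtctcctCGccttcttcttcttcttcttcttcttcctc

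Intronic summits made up a small share of the strongest peaks and a larger one towards the weak end of each list. Bases that meet the same rule make up 23.2% of the genome. Among the 100 strongest combined peaks 3 summits were intronic, or 3% (0.623 to 8.52). Among the 193 strongest, which are the reproducible list, 8 were, or 4.15% (1.81 to 8.004), and among the 1000 strongest 65 were, or 6.5% (5.05 to 8.21). With the combined list cut at its quartiles of signal, from weakest to strongest, the share went from 15.4% (129 of 836 peaks) through 13.8% and 12.2% to 5.63% (47 of 835).

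The share rose down the list in each replicate alone too. In replicate 1 the share was 7.77% of the 193 strongest peaks (4.42 to 12.5), 12.2% of the 1000 strongest and 20.1% of all peaks. In replicate 2 it was 3.63% (1.47 to 7.33), 6.4% and 18.5%. At the same number of strongest peaks, 1000, the 2 replicates' intervals did not overlap (10.2 to 14.4 in replicate 1, 4.96 to 8.10 in replicate 2). All 3 lists stayed below the genome's own share of such bases at each number of peaks taken.

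**Figure D1:**
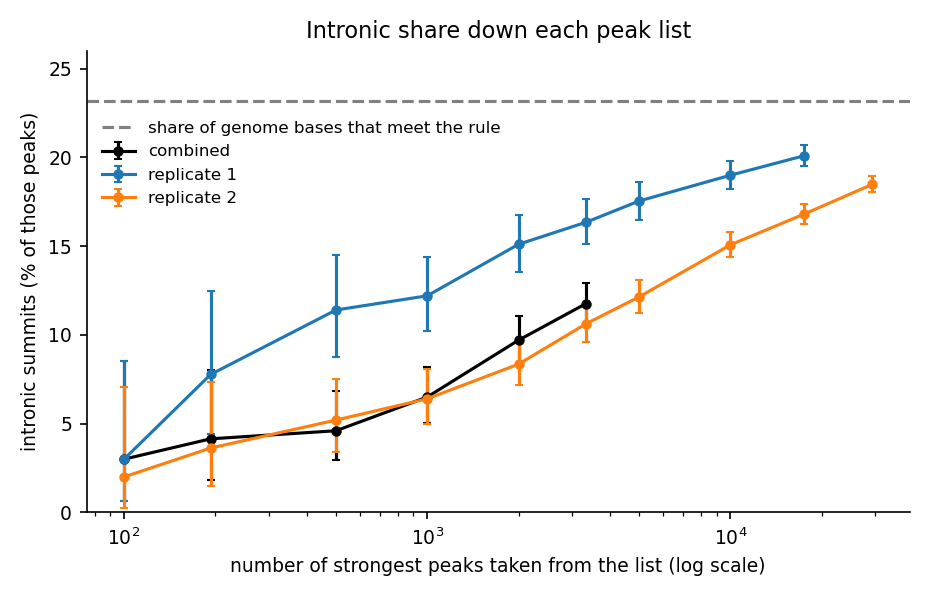
The share of peaks with an intronic summit (vertical axis, %) among the strongest peaks of each list (horizontal axis, log scale), for the combined list and each replicate, with exact 95% intervals; the dashed line is the 23.2% of genome bases that meet the rule. All 3 lines rise from 2% to 3% of the 100 strongest peaks and end below the dashed line, with replicate 1 above replicate 2.

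Few intronic peaks were in the reproducible list or had a low q-value. Of the 393 intronic peaks, 8 or 2.04% (0.883 to 3.97) were in the reproducible list, while 5.78% of all combined peaks were. That list is the strongest combined peaks by signal, so this restates the low intronic share among them. The authors' q-value was at or under 0.05, a cutoff set here, for 11 of the 393, 2.80% (1.41 to 4.95), against 8.35% of all combined peaks. The median −log10 q was 0.110 (0.0919 to 0.133), and 0.184 at the other combined peaks. Their median signal was 18.6 (exact 95% interval 18.4 to 18.9), and the range was 16.6 to 68.6. The other 2948 combined peaks had a median of 19.6 (19.4 to 19.8).

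Overlap with the replicate lists depended on how close the summits had to be. By any shared base, a peak of replicate 1 overlapped 331 of them, 84.2% (80.2 to 87.7), against 82.3% of all combined peaks. A peak of replicate 2 overlapped 315, or 80.2% (75.9 to 84.0), against 89.6%. Both replicates had one at 256, or 65.1% (60.2 to 69.8), against 72% of all combined peaks. With replicate summits required within 100 bp, both had one at 42.5% (37.6 to 47.5) of the intronic peaks. By any shared base, replicate 1 alone had one at 75 (19.1%), replicate 2 alone at 59 (15.0%), and 3 had neither. No share over all combined peaks is given beside these counts or the 100 bp setting, so they describe the intronic peaks only. Combined peaks were called on the same reads as the replicate lists, so a high overlap was built in, and no test of the differences was made.

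Where a replicate had a peak, the value taken was that of the overlapping peak with the nearest summit. Over the intronic peaks, replicate 1 signals had a median of 11.7 (11.4 to 12.2) and replicate 2 signals of 7.90 (7.51 to 8.36). For the other combined peaks these medians were 11.5 (11.3 to 11.7) and 9.46 (9.20 to 9.74), so the intervals of the introns and the other peaks overlapped in replicate 1 and not in replicate 2. Across the 256 peaks found in both replicates, Pearson's r of the 2 signals was 0.00576 and Spearman's rho -0.184. Across the 2151 other combined peaks found in both, r was 0.202 and rho -0.0412. These describe peaks that were all picked on their combined signal, and neighbouring peaks can share reads.

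**Figure D2:**
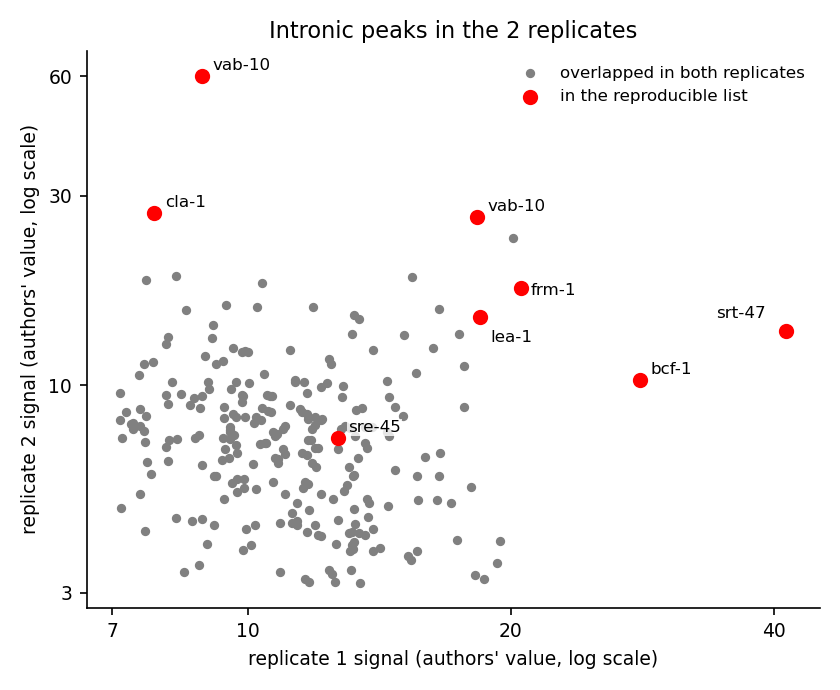
Signal of 256 intronic peaks in replicate 1 (horizontal) and replicate 2 (vertical), each the authors' value on a log scale, with the 8 peaks of the reproducible list in red and named by host gene. At vab-10 (8.87 and 60.1) and srt-47 (41.3 and 13.7) the peak with the nearest summit is near the top of 1 list and not of the other. A further replicate 1 peak, of signal 18.3, also overlaps that vab-10 peak. Most grey points form a cloud with no common trend, and the axes have separate scales.

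The 8 reproducible intronic peaks lay in 7 genes. The strongest, with signal 68.6, was in vab-10, which encodes a spectraplakin, a giant protein that links cytoskeletal filaments and anchors muscle and epidermis to each other. It lay at chrI:11764011-11764380, in an intron of 11168 bp, the 11th of 24 introns in the transcript used, and 641 bp from the nearest exon. That exon belongs to other vab-10 transcripts and lies within the intron. The matching peak, by nearest summit, had signal 60.1 in replicate 2, rank 3 of that list, and 8.87 in replicate 1, rank 8784. A second replicate 1 peak, of signal 18.3 and with its summit further away, overlapped the combined peak too. Replicate 2 called it over 172 bp where its peaks were otherwise 380 bp wide, apart from 2 further narrow ones. A neighbouring peak of the same intron, at chrI:11764593-11764962, was also reproducible, with signal 35.0. It had 18.3 in replicate 1 and 26.5 in replicate 2, and 34.1% of it lay in that exon. The other vab-10 peak, in an intron of 271 bp, had 19.9.

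The second strongest, 55.4, lay in the third of 4 introns of srt-47, at chrIV:15049550-15049919. Its summit was 2 bp from the following exon, as the sequence printed above shows, and exons made up 49.7% of the peak. This site was the strongest peak of the whole replicate 1 list (41.3), and it ranked 822 in replicate 2 (13.7). A weaker intronic peak (18.0) overlapped it.

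The third, 39.4, was in the seventh of 13 introns of frm-1, a gene of the FERM-domain family of membrane-cytoskeleton linkers, at chrI:14881184-14881553. Both replicates ranked it high, with 20.5 in replicate 1 (rank 83) and 17.5 in replicate 2 (rank 380). The lea-1 peak, at chrV:10026724-10027093 with signal 37.4, had 18.4 in replicate 1 (rank 161) and 14.9 in replicate 2 (rank 654). It lay 368 bp from an exon in the last of 11 introns, and the GC content around it, 25.9%, was the lowest of the 8.

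The bcf-1 peak, at chrV:6401593-6401962 with signal 37.0, sat in an intron of 86 bp, and exons took 76.8% of its width. It had 28.1 in replicate 1 (rank 14) and 10.3 in replicate 2 (rank 2135). A combined peak of signal 43.4 overlapped it on the 3′ side, where replicate 2 had 34.0. The cla-1 peak was near the top of the other list. At chrIV:7623764-7624133, in the 33rd of 39 introns, it had combined signal 35.4, only 7.82 in replicate 1 (rank 13351) and 27.2 in replicate 2 (rank 61).

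The weakest of the 8, 33.3, was in the last of 3 introns of sre-45, at chrII:13521365-13521734. This intron of 1599 bp also holds the snoRNA gene F54F11.6. That gene overlaps the peak and supplies the exon bases that make up 28.9% of it, and the summit lay 249 bp from the nearest start and 79 bp from the nearest exon. Replicate values were 12.7 (rank 1690) and 7.36 (rank 5909), so neither ranked it near the top. Of its 31-base words 28.8% occurred more than once in the genome, against 7.06% at the strongest vab-10 peak and 0% at frm-1, lea-1 and cla-1.

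**Figure D3:**
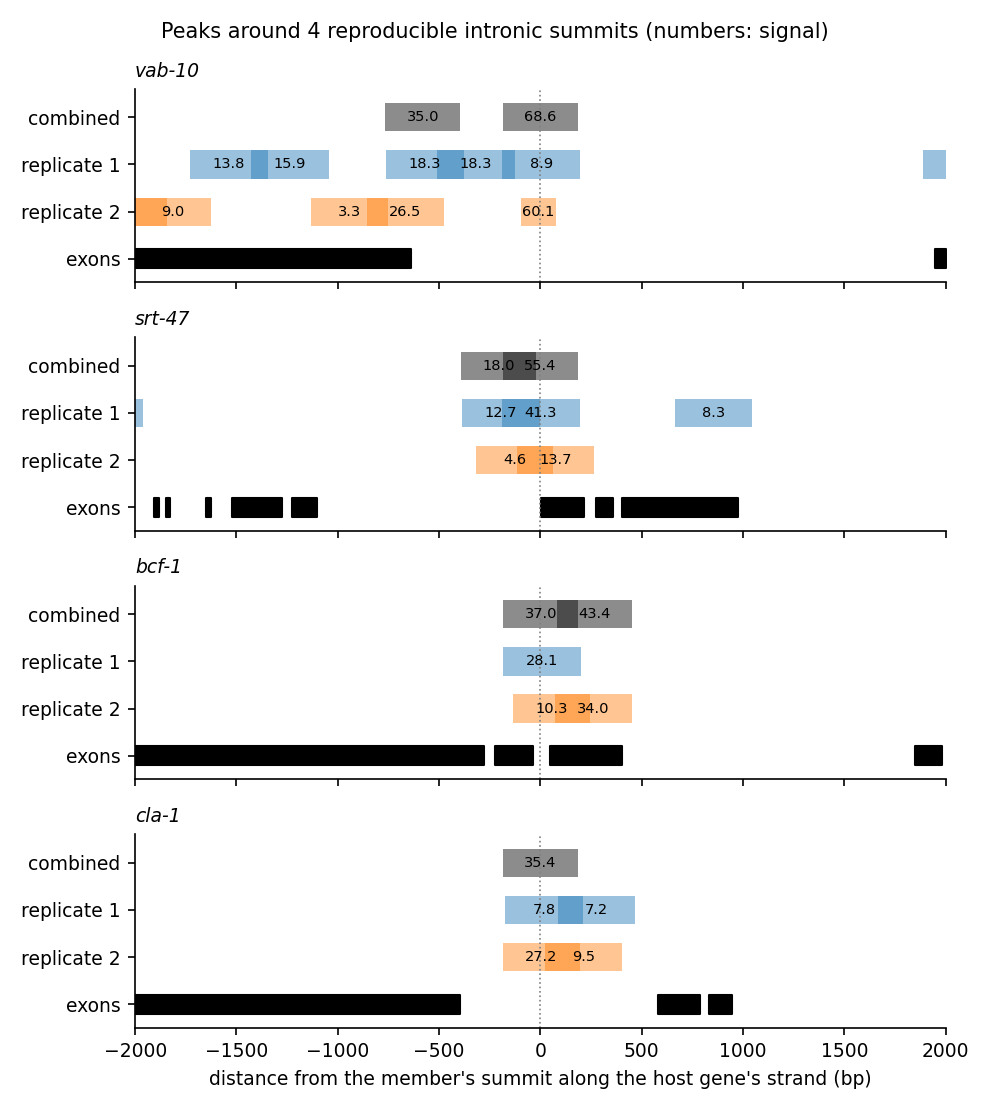
Peaks within 2000 bp of 4 reproducible intronic summits, drawn along the host gene's strand (horizontal axis, bp from the summit), with bars for the combined list and each replicate, the authors' signal as numbers, and annotated exons of any gene in black. The vab-10 and cla-1 summits lie in open intron, the srt-47 summit touches an exon, and the bcf-1 peak spans exons on both sides of a short intron.

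Below the reproducible list, the next 17 peaks by signal completed the 25 strongest, and 23 of the 25 were overlapped in both replicates. Short introns led this group: cbd-1 (32.0), cec-6 (31.6), irg-7 (30.8) and emb-8 (30.2), the last encoding NADPH-cytochrome P450 reductase, lay in introns of 47 to 53 bp. At cbd-1, on chrIV:11375220-11375589, the replicates gave 20.1 and 23.5, rank 92 in replicate 1 and 113 in replicate 2. At cec-6 they gave 16.6 and 15.6, and at irg-7 15.4 and 18.8. ZC21.8 (25.8) lay in an intron of 43 bp, the shortest of all.

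Peaks in introns of 585 to 2965 bp followed. They were at Y45F10D.7 (29.8), ncl-1 (28.7), which encodes a B-box protein that limits nucleolar size, mom-1 (27.9), which encodes the Porcupine enzyme of Wnt secretion, mca-3 (27.5), which encodes a plasma membrane calcium pump, unk-1 (27.1), of the Unkempt family of RNA-binding proteins, ubr-4 (26.7), of a ubiquitin ligase family, gly-6 (25.95), which encodes an N-acetylgalactosaminyltransferase, and flcn-1 (25.6), the folliculin gene. The ncl-1 peak had 13.1 in replicate 1 and 13.4 in replicate 2. The gly-6 peak had 13.4 in replicate 1 and only 4.23, rank 19540, in replicate 2, and replicate 1 had no peak at ubr-4.

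Host introns were mostly long, and so are the introns that hold most intron bases. The median host intron was 741 bp (658 to 909), while the median over distinct annotated introns of protein-coding genes was 68 bp. Counted over rule-meeting bases instead of introns, the median was 890 bp, inside the interval for the peaks. Among peaks free of exons the median host intron was 1933 bp (1603 to 2662). Such a peak needs an intron of at least its own 370 bp, and 22.2% of rule-meeting bases lie in shorter ones. This median is therefore longer by construction and is not set against 890 bp. Introns of 1000 bp or more held 164 peaks, 41.7% (36.8 to 46.8), against 45.6% of those bases, and introns of 5000 bp or more held 54, 13.7% (10.5 to 17.5), against 11.5%. Introns under 100 bp held 50, 12.7% (9.59 to 16.4), against 8.83%, which lies below that interval. The longest host intron, 86515 bp in cox-6B, which encodes a subunit of cytochrome c oxidase, held a weak peak of 17.3.

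**Figure D4:**
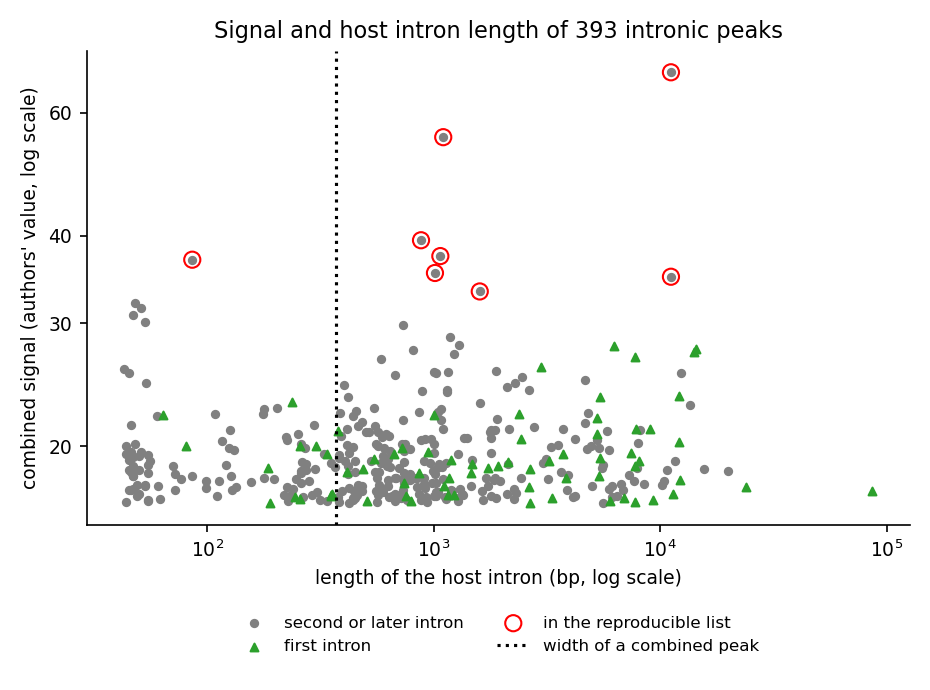
Combined signal (vertical axis, authors' value, log scale) of the 393 intronic peaks against the length of the host intron (horizontal axis, bp, log scale), with first introns as green triangles and the reproducible list circled in red. Strong peaks stand at introns near 1000 bp, at 11168 bp and at introns under 100 bp, and no first-intron peak exceeds 27.8.

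A summit in a short intron brings exon sequence with it. In the 50 introns under 100 bp, exons made up a median of 80.1% of the peak (72.4 to 84.3), and over all 393 peaks 225 touched an annotated exon and 62 were at least 50% exon. The median signal was 18.6 (18.1 to 19.5) under 100 bp, 18.4 (18.0 to 18.9) at 100 to under 1000 bp and 18.9 (18.4 to 19.6) at 1000 bp or more, with overlapping intervals. A summit within a few bases of an exon cannot be assigned to the intron at the resolution of a 370 bp peak. Without the 225 peaks that touch exons, 168 remained, 5.03% of the combined list.

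First introns held 70 summits, 17.8% (14.2 to 21.96), against 21.7% of rule-meeting bases, which lies inside that interval. Among peaks free of exons, which cannot lie in introns shorter than the peak, the share was 26.8%. Its interval was 20.3 to 34.2. The 21.7% includes bases of those shorter introns, so the exon-free share is not set against it. Over all 393 peaks no intron order was shown. With a start window of 2000 bp upstream to 500 bp downstream first introns held 10.3%. The share of bases was not recounted for exon-free peaks or for this window. Second introns held 51, 12.98% (9.82 to 16.7), against 15.6%. None of the 70 was in the reproducible list, which allows a share of up to 5.13% (exact 95% interval), and their highest signal was 27.8. The median was 18.7 (18.1 to 19.5) in first introns and 18.6 (18.3 to 18.9) in later ones. Of the 25 strongest peaks 5 were in first introns: gei-4 (27.8), daf-5 (27.5), ell-1 (27.3), pqn-41 (26.8) and gly-6. Within the intron, summits were spread along its length, with a median at 47.1% (43.7 to 51.5) from the 5′ end. Of all 393, 380 lay between coding exons and 13 in introns beside or within an untranslated region.

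The first-intron leaders had these values in the replicates. The gei-4 peak, at chrIII:349656-350025 and 1408 bp from any exon or start, had no peak in replicate 1 and 13.6 in replicate 2. At daf-5, on chrII:14040301-14040670, the values were 16.3 and 12.4, and at ell-1, on chrIV:4398204-4398573, they were 9.44 and 15.9. The pqn-41 peak, at chrIII:1921062-1921431, had 7.65 and 18.4.

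The nearest start was 1553 bp away at the median (1446 to 1697), and 1464 bp for rule-meeting bases. The summits just beyond a start window, within 100 bp of its edge, numbered 26 with a median signal of 18.1. The 37 otherwise intronic summits in the last 100 bp of a window, which were not counted, had a median of 18.8.

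Intron sequence under the peaks held somewhat more G and C than the intron bases of the genome. Over the rule-meeting bases within each peak the median was 34.3% G or C (33.3 to 35.4), against 31.8% of all rule-meeting bases. Within 100 bp of the summit, exon bases included, it was 37.3% (36.3 to 37.8). In that window the 168 peaks that touch no exon had 37.8% (36.3 to 39.3). At the other combined peaks it was 40.3% (39.8 to 40.3). First introns (37.8%, 36.8 to 40.8) and later ones (36.8%, 36.3 to 37.8) had overlapping intervals. The spread was wide, from 16.9% to 58.2%, and 12 peaks (3.05%) were over 50%, 5 of them among the 70 in first introns (7.14%). Of the other combined peaks, which hold more exon, 7.60% were over 50%. The 12 included daf-16, the FOXO factor of insulin signalling (58.2%), gei-4 (57.2%), unk-1 (56.2%) and daf-5 (52.7%). Across the 393 peaks, GC content and signal had r = 0.115 and rho = 0.150, a weak relation given here as a description.

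**Figure D5:**
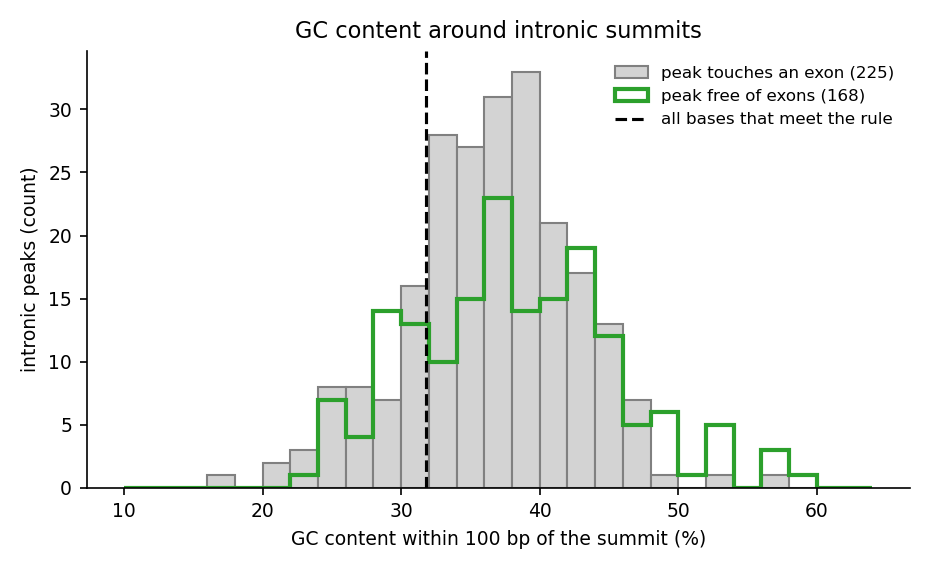
GC content within 100 bp of the summit (horizontal axis, %) for the 225 intronic peaks that touch an exon (grey bars) and the 168 that do not (green line), as counts of peaks; the dashed line is the 31.8% of all rule-meeting bases. Both groups lie mostly to the right of the line, which counts intron bases alone, and the peaks free of exons reach from 23.4% to 58.2%.

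Bases shown in lower case in the RefSeq genome, which are masked as repeats or simple sequence, took a smaller part of the intron under the peaks than of introns at large. Over the rule-meeting bases of each peak the median was 39.7% masked (36.5 to 43.8), against 53.6% of all such bases, and 31.01% (23.5 to 38.6) for peaks free of exons. Over 50% of the peak was masked at 87 of the 393 (22.1%, 18.1 to 26.6) and at 8.21% (7.24 to 9.26) of the other combined peaks. These shares are of whole peaks, and exons took a median of 10.8% of the intronic peaks and 63.2% of the others. Over rule-meeting bases alone, the 629 other peaks that hold any had a median of 48% masked (44.2 to 51.3), above that of the intronic peaks. At least 1 31-base word found more than once in the genome occurred in 69 intronic peaks, 17.6% (13.9 to 21.7), and in 12.1% (10.9 to 13.3) of the other combined peaks. Such words, also counted over whole peaks, filled over 50% of 1 intronic peak (0.254%), and of 0.237% of the other combined peaks. The part of GC content, masking and copy number in these calls was not tested.

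The 393 summits lay in 352 genes. There was 1 summit in 318 of them, 2 in 28 and 3 or more in 6, and 9 introns held more than 1. In hmr-1, the classical cadherin gene, 4 summits had signals of 21.9, 20.8, 18.7 and 17.9. There were 3 summits each in vab-10, mca-3 (27.5, 24.8 and 17.3), pqn-41 (26.8, 18.7 and 16.7), Y69A2AR.31 (24.3, 20.5 and 17.1) and fln-1, which encodes filamin, an actin cross-linker (21.5, 18.0 and 17.4). These are genes with much intron: host genes had a median of 3326 rule-meeting bases, and all 16586 genes with any had 638. At 16 of the 393 the peak overlapped another combined peak, so some neighbours are not separate sites.

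Some genes with an intronic summit had a peak at a start as well. Of the 352 host genes, 56 or 15.9% (12.2 to 20.2) had a combined summit in the start window, against 6.33% of all protein-coding genes with rule-meeting bases. Hosts have more intron, as above. Among genes with at least the hosts' median of such bases, 37 of 176 hosts had a start peak, 21.0% (15.3 to 27.8), and 160 of all 1704 did, 9.39% (8.05 to 10.9). Genes with both included hmr-1, fln-1, mca-3 and ncl-1, while vab-10, srt-47 and pqn-41 had none. A gene was counted if the start window of any of its protein-coding transcripts held a summit, and the number of transcripts was not matched. No test was made of this difference, and the hosts are among the genes they are set against.

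Hosts were also counted against 6 short lists of gene symbols. Each list holds chosen genes and name families and not every gene of its role, so its counts describe the list and not the role. The list for muscle and its attachment, with 56 genes, held 6 of 393, 1.53% (0.562 to 3.29), against 1.03% of rule-meeting bases. They were 3 in vab-10, 1 in let-805, which encodes myotactin (23.5), 1 in cpna-2, of the copine family (22.1), and 1 in unc-89, which encodes an obscurin-like protein of the sarcomere (20.6). The let-805 peak had 10.4 in replicate 1 and 10.6 in replicate 2, and cpna-2 had no peak in replicate 1.

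The chemoreceptor list, with 1236 genes, held 4, or 1.02% (0.278 to 2.59), against 2.95% of such bases: 2 in srt-47, 1 in sre-45 and 1 in str-155 (20.1). It leaves out the srj family, of which srj-40 held a peak (17.3). The list for channels, synapse and axon guidance, with 191 genes, held 5, or 1.27% (0.414 to 2.94), against 2.68%. They were at ric-7 (20.5), avr-15, which encodes a glutamate-gated chloride channel subunit (18.0), sax-7, of the L1 adhesion family (17.9), and unc-103, which encodes an ERG-type potassium channel (17.5 and 16.6). The list does not include cla-1, the reproducible active-zone host described above, nor trpa-1 (19.7) and trp-4 (18.95), of the TRP channel family.

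The list for transcription and chromatin, with 493 genes, held 14, or 3.56% (1.96 to 5.90), against 3.49% of such bases. Within the list, the strongest were at lin-14, a heterochronic factor of larval timing (21.6), nhr-226, of the nuclear hormone receptors (20.4), chd-7 (19.9), mdt-15, a Mediator subunit (19.4), and pax-3 (18.9). Hosts of such roles outside the list had stronger peaks, among them cec-6, daf-5 and ell-1 above and ama-1, which encodes the large subunit of RNA polymerase II (24.5). In the replicates, lin-14 had 8.27 in replicate 1 and 18.8 in replicate 2, nhr-226 had 14.2 and 3.89, and each replicate lacked a peak at 1 of chd-7 and mdt-15. The list for RNA processing, export and translation, with 189 genes, held 0 of the 393, which allows up to 0.934%, against 0.645% of the bases. Genes of those roles outside it did hold peaks, such as mog-5, which encodes a splicing helicase (18.97), ptb-1, of the polypyrimidine tract-binding family (18.7), and the tRNA synthetase genes cars-1 (19.8) and aars-1 (17.6). The list for basement membrane and matrix, with 23 genes, also held 0, against 0.290%. Hosts named here from outside the lists, other than those of the strongest peaks, were chosen after their values were seen. Both shares of bases lie within what a count of 0 allows.

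Intronic peaks lay on all 6 chromosomes. They numbered 82 on I (20.9%, against 19.8% of rule-meeting bases), 73 on II (18.6% against 14.7%), 82 on III (20.9% against 17.6%), 54 on IV (13.7% against 13.5%), 47 on V (11.96% against 17.9%) and 55 on X (13.99% against 16.5%). The interval for V, 8.92 to 15.6, lay below its share of bases, and that for II, 14.9 to 22.8, just above. All combined peaks leaned the same way from these shares, with 15.7% on V and 17.3% on II. Most of them are not intronic, so shares of intron bases are not a like reference for them. The intervals for the intronic peaks held the value of all combined peaks for II and just missed that for V. The X interval, 10.7 to 17.8, held its share, and the median signal was 19.02 (18.0 to 19.5) on X and 18.6 (18.3 to 18.9) on autosomes. Of the 8 reproducible intronic peaks 0 were on X, which allows a share of up to 36.9% (exact 95% interval).

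Other genes lay inside the host intron at 44 of 393 peaks, 11.2% (8.25 to 14.7), against 9.42% of rule-meeting bases. This share depended on the rule: it was 33.6% with starts and exons of protein-coding genes only, 19.6% for peaks free of exons and 6.58% with a start window of 2000 bp upstream to 500 bp downstream. Noncoding RNA genes of the ncRNA class were there at 27, protein-coding genes at 9, snoRNA genes at 6, piRNA genes at 4, microRNA genes at 3 and tRNA genes at 2. The snoRNA cases, whose products guide chemical modification of other RNAs, were in sre-45 (33.3), dnj-20 (21.2), unc-89 (20.6), ssl-1 (20.04), sea-2 (17.8) and ulp-4 (17.2). These hosts, other than sre-45 and unc-89, are named because the count is small and were chosen after their values were seen. By the rule each summit was outside the start window of the nested gene.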

How the data were processed

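The samples were 2 biological replicates of 1 group, per the labels. The authors deposited peak lists in ce10 and ce11, each peak with a signal value, whose scale is not stated, and a −log10 q-value. Per the descriptions that accompany the files, a control alignment entered the peak calls, and the permissive lists, which include background, fed the reproducibility analysis. The combined list came from both replicates' alignments. Which peak caller and aligner were used is not given in the sources used here. The ce10 lists were not used here.

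Summits of the ce11 lists were set against Ensembl release 115 (WBcel235), and all peaks lay within its chromosomes. Protein-coding means transcripts of that biotype. The host intron was the shortest that holds the summit. Intron bases that meet the rule were counted exactly. The GC window reached 100 bp either way from the summit, and repeated words had 31 bases. Shares have exact (Clopper-Pearson) and medians exact order-statistic intervals, both at 95%. The intervals treat peaks as independent, which neighbours are not. No p-value was computed, because there is 1 group and the peaks are not replicates.

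Named genes were hosts of the 25 strongest members, of reproducible members, of 3 or more members, and of the 5 strongest in each of 6 gene lists. For daf-16, cox-6B, hosts of nested snoRNA genes and hosts named from outside the lists the choice followed their values. The members and lists were chosen with earlier results of these data known. The sorting of summits was checked on positions drawn at random from the regions that make up the rule, so that outcome was fixed in advance. Only the intron order was recounted, from the same exons. Computation was in Python (3.11.15) with scipy (1.17.1), numpy (2.4.6) and, for plots, matplotlib (3.10.9). Alternatives were other peak lists and thresholds, each replicate alone, other start windows, protein-coding annotation only, exon-free peaks, and other overlap, transcript and GC settings.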

Additional observations from a re-analysis of the deposited data

How the results depend on the processing

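Of 83 alternative values, 45 stayed within the 95% interval of the value reported and 38 moved out of it. The cause was not tested, except that a narrower or wider rule changes membership by construction. The intronic share of peaks, 11.8%, was 4.15% in the reproducible list and 8.92% at or above the median signal. It was 14.9% with a start window of 500 bp upstream to 100 bp downstream and 7.27% with one of 2000 bp to 500 bp. With protein-coding starts and exons only it was 16.5%, and with peaks free of exons 5.03%. With 1 replicate left out, which means the other's whole, longer list, it was 18.5% to 20.1%. Among only the 3341 strongest peaks of each replicate's list it was 16.3% in replicate 1 and 10.6% in replicate 2.

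At or above the median signal, 5.37% of members were reproducible, 89.9% overlapped replicate 2, 76.5% overlapped both and the median signal was 21.2. With protein-coding annotation only, these were 4.54% reproducible, 84.0% in replicate 2 and a signal of 18.97, GC was 38.8% and 33.6% of host introns held another gene. With replicate summits required within 100 bp, the overlap was 74.3% in replicate 1, 64.4% in replicate 2 and 42.5% in both. With at least 50% of both peaks overlapping it was 74.3% in replicate 2 and 56.7% in both.

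In the reproducible list, the 8 members had a median signal of 37.2, a median intron of 1087 bp, 0% in first introns, 0% on X and GC of 38.8%. With peaks free of exons, the median intron was 1933 bp, 26.8% were in first introns, 10.7% on X and 19.6% in introns with another gene. First introns held 22% with the narrower start window and 10.3% with the wider one, and introns with another gene held 16.2% and 6.58%. GC was 34.8% to 35.8% with 1 replicate left out and 35.6% over 50 bp on each side. With 1 replicate left out, host intron length (788 to 795 bp), first introns (20.3% to 20.6%), X (15.1% to 15.5%) and nested genes (10.6% to 11%) stayed within the intervals. No paired analysis was possible because the study holds a single group of samples. Peak lists give no read depth.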
